A study of Mus musculus with 9 samples.

Results

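The genes described here are 8 keratins (Krt8, Krt18, Krt7, Krt19, Krt5, Krt14, Krt17 and Krt80) and vimentin (Vim), 9 of the 55335 genes counted, chosen by symbol as cytoskeletal markers of epithelial and mesenchymal cells. They were followed in D2A1-d, a mouse breast carcinoma line that the study's title places in work on metastatic dormancy, when disseminated tumour cells persist but do not grow out. All cells were grown in medium with serum, are labelled untreated, and carried 1 of 3 short hairpin RNAs by transduction. The shMed4 #4 and shMed4 #1 groups (genotype label Med4 Knockdown) carried hairpins against Med4, a subunit of Mediator, the coactivator that bridges DNA-bound regulators and RNA polymerase II, and the NTC group (genotype label WT) carried a non-targeting hairpin. Each group had 3 libraries numbered as biological replicates, with 7572114 to 8582235 reads assigned to genes per library. The labels name neither clones nor pools, and do not say whether replicates were separate transductions, and p-values therefore reflect only how these libraries vary.

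Intermediate filaments are the flexible ropes of the cytoskeleton. Keratins form them only as pairs of an acidic type I and a basic type II chain, and epithelial cells choose their pairs by tissue layer: Krt8 with Krt18 in simple and luminal epithelium, Krt5 with Krt14 in basal and myoepithelial cells. Vimentin is a type III protein that assembles with itself and is the usual filament of mesenchymal cells. Carcinoma cells that take on mesenchymal features commonly hold less keratin and more vimentin.

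Med4 was lower in all 6 knockdown libraries, at 7.21 ± 0.98 CPM with shMed4 #4 and 4.53 ± 0.39 CPM with shMed4 #1, against 27.4 ± 2.2 CPM in NTC (SD, n = 3 each). CPM is the read count scaled to a common library size with TMM factors. Of 7 non-keratin markers of simple epithelium, 3 (Cdh1, Cldn4 and Esrp1) had 0 reads in all 9 libraries, and the 7 together had 1 to 5 reads per library with shMed4 #4, 1 to 5 with shMed4 #1 and 1 to 7 in NTC. Cdh1 encodes E-cadherin and Esrp1 an epithelial splicing factor. The epithelial surface protein Epcam had 1 read in all. The label of a breast carcinoma line is therefore not accompanied by these epithelial transcripts. Mesenchymal markers were abundant, with a summed level of 4457 to 5094 CPM with shMed4 #4, 4826 to 5000 CPM with shMed4 #1 and 4796 to 5184 CPM in NTC, most of it from Fn1 (fibronectin) and Vim. Fn1 was called higher than NTC with shMed4 #4 and shMed4 #1 (log2 0.24 and 0.16, edgeR adjusted p = 0.000367 and 0.019). Of 8 listed mesenchymal genes 7 were tested. With shMed4 #4 3 were higher and 2 lower, and with shMed4 #1 2 were higher and 1 lower. Shares over all tested genes were 27.8% and 27.3%, and 21.8% and 19.8%. Some other genes of the list were scarce, with 57 reads of Cdh2 (N-cadherin) and 61 of S100a4 in all 9 libraries. Cdh2, not tested, had 41, 9 and 7 reads with shMed4 #4, shMed4 #1 and NTC. S100a4 may be undercounted, since a gene on the same strand lies over 51.7% of its exon bases. Reads ambiguous between genes were not counted. Leukocyte markers summed to 16.1 to 17.3 CPM with shMed4 #4, 14.2 to 16.5 CPM with shMed4 #1 and 18.4 to 23.1 CPM in NTC. Endothelial markers summed to 1.83 to 3.10, 2.49 to 3.93 and 0.904 to 1.74 CPM in the same order. Cd3e, Tie1 and Emcn had 0 reads in all libraries. With shMed4 #4 and shMed4 #1, the macrophage lysozyme gene Lyz2 was at 0.297 and 0.365 of NTC and the B-cell gene Cd79a at 0.470 and 0.460 (all called lower). Lyz2 had 12, 31 and 47 reads in NTC, and NTC overlapped shMed4 #1. Cd68 was called lower with shMed4 #1, at 0.572 of NTC, and was not called with shMed4 #4 (edgeR adjusted p = 0.120). Csf1r, on the same list, averaged 10.9, 10.2 and 10.4 CPM with shMed4 #4, shMed4 #1 and NTC and was not called. Cdh5, VE-cadherin, was called higher, at 2.67 and 2.94 times NTC. Pecam1, on the same endothelial list, was not tested, with 10, 13 and 12 reads with shMed4 #4, shMed4 #1 and NTC. The part of these markers in the results was not tested.

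With either Med4 hairpin the keratin pair Krt8 and Krt18 rose and vimentin fell, while Krt80 did not pass the test and the other 5 keratins stayed below the level at which genes were tested. Of the 9 genes 4 were tested. With shMed4 #4 against NTC, 2 were called higher and 1 lower, where 55.1% of all 14335 tested genes were called (27.8% higher, 27.3% lower). With shMed4 #1 against NTC the same 2 were higher and Vim lower, where 41.6% of all genes were called (21.8% higher, 19.8% lower). Calls are at an adjusted p under 0.05 in edgeR's quasi-likelihood test over all genes. Both contrasts use the same NTC libraries. In RNA from whole cultures, a change in the number of cells that express a gene and a change of RNA per cell cannot be told apart.

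**Figure D1:**
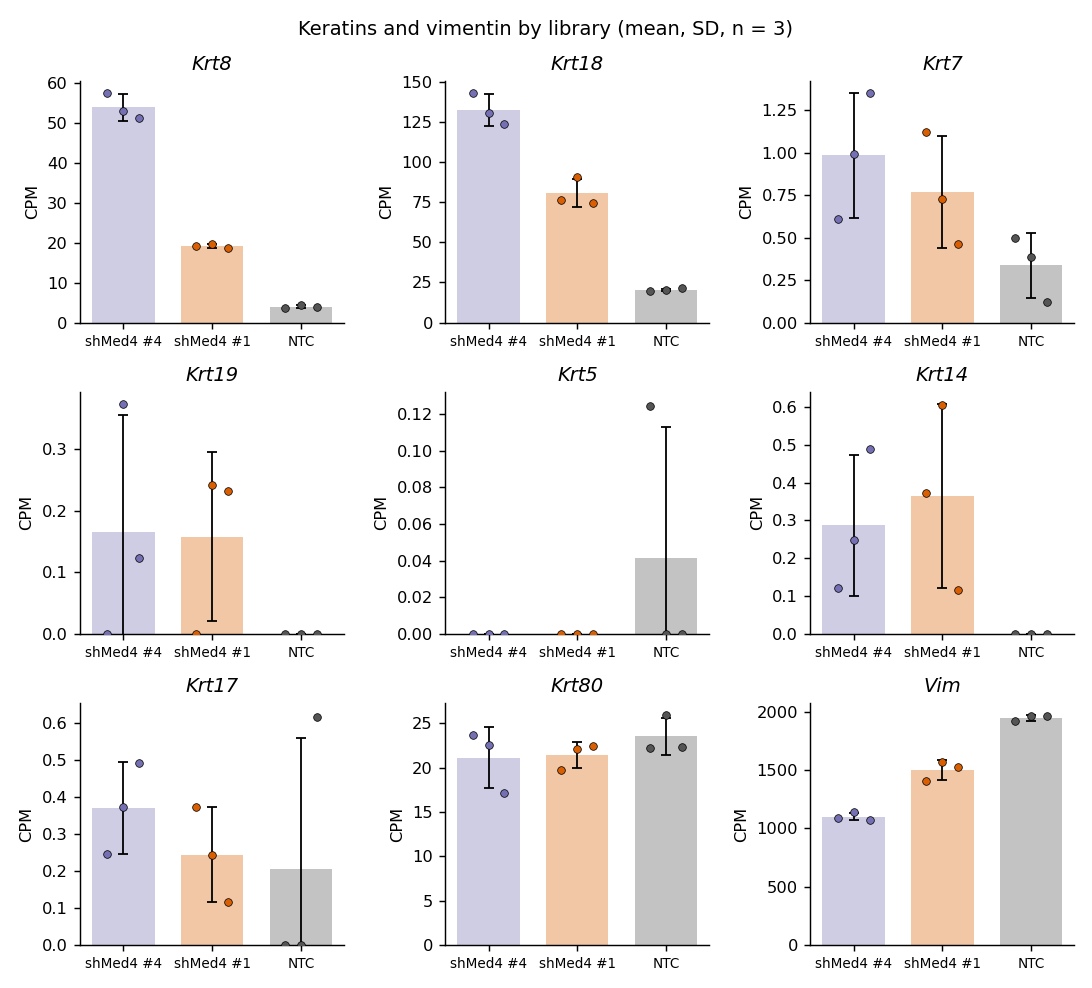
Level of each of the 9 genes in CPM (vertical axes from 0 with a scale of their own) in the shMed4 #4, shMed4 #1 and NTC groups. Points are libraries, bars group means and whiskers SD (n = 3). Krt8 and Krt18 are highest with shMed4 #4 and lowest in NTC, Vim runs the other way, Krt80 overlaps between groups, and the other keratins stay near 0.

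Krt8, the type II chain of simple epithelium (ENSMUSG00000049382.10, chromosome 15, 101996698 to 102004482 on the minus strand, GRCm38, protein-coding), had 472, 426 and 417 reads with shMed4 #4, 154, 163 and 162 with shMed4 #1, and 29, 34 and 31 in NTC. The 3 groups did not overlap. Levels were 53.9 ± 3.3, 19.2 ± 0.49 and 3.93 ± 0.41 CPM in the same order (SD, n = 3 each). The fold over NTC was 13.7 with shMed4 #4 (log2 3.77, SE 0.12, edgeR adjusted p = 1.16e-25) and 4.87 with shMed4 #1 (log2 2.28, SE 0.14, edgeR adjusted p = 3.82e-16).

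Krt18, its type I partner (ENSMUSG00000023043.7, chromosome 15, 102028180 to 102032027 on the plus strand, protein-coding), had 1176, 1053 and 1010 reads with shMed4 #4, 617, 751 and 646 with shMed4 #1, and 160, 156 and 173 in NTC. Again no library of one group reached the range of another. Levels were 133 ± 9.95, 80.8 ± 8.8 and 20.4 ± 0.71 CPM in the same order. Krt18 was 6.49-fold over NTC with shMed4 #4 (log2 2.70, SE 0.08, edgeR adjusted p = 3.36e-26) and 3.95-fold with shMed4 #1 (log2 1.98, SE 0.09, edgeR adjusted p = 7.04e-21). The 2 genes lie 23.7 kb apart, at the end of the type II cluster, and Krt18 is the type I gene outside the type I cluster on chromosome 11.

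The promoter windows of this pair are shown because the genes moved together. Each runs from 250 bases before to 50 after a RefSeq start (RefSeq, GRCm38.p6), printed 5′ to 3′ on the gene's strand, chr15:102004293-102004592 (minus) for Krt8 and chr15:102027966-102028265 (plus) for Krt18. Capitals mark matches, on either strand, to any of 5 motifs searched: the GC box (GGGCGG), AP-1 (TGAGTCA), the TATA box (TATAAA), an E-box (CAGGTG) and the CACCC box (CCACCC).
Krt8: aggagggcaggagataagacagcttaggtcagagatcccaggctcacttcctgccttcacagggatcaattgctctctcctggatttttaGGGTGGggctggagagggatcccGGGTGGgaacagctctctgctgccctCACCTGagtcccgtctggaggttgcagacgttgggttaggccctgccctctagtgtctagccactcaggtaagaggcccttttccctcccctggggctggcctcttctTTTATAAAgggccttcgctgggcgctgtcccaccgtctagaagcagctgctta
Krt18: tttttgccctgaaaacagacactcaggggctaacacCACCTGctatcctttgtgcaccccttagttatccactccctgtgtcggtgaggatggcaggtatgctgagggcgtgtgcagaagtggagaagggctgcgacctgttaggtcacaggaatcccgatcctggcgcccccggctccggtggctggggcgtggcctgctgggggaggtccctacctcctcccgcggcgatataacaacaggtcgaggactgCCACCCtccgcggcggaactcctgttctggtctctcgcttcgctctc
An E-box match stands in both windows, on the other strand, at position -111 in Krt8 and -214 in Krt18, counted from the start site, and 20.2% of 32851 mouse promoter windows of this length hold such a match. The match is not particular to this pair. The windows of Krt7 and Krt5, not printed, also held one (at -44 and -128), and that of Krt14 did not. CACCC box matches (31.5% of windows) number 2 in Krt8 and 1 in Krt18. TATAAA (13.6% of windows) was matched in Krt8, on both strands in overlapping positions at the start itself, and not in Krt18. Neither the Krt8 nor the Krt18 window matched GGGCGG (35.7% of windows) or TGAGTCA (5.2%). A match describes letters in the window and is no evidence of binding.

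The ratio of the chains was higher in each shMed4 #4 library than in any other, while shMed4 #1 and NTC overlapped. Per kb of exon, Krt8 was 0.298 ± 0.0044 of Krt18 with shMed4 #4, 0.176 ± 0.014 with shMed4 #1 and 0.142 ± 0.016 in NTC (SD, n = 3 each). The ratio in shMed4 #4 libraries did not overlap that in shMed4 #1 or NTC libraries (difference 0.123 and 0.157, each with an exact two-sided permutation p = 0.10, the smallest that 3 against 3 allows). Between shMed4 #1 and NTC libraries there was a difference of 0.034 and an exact permutation p = 0.20. Adjusted over the 9 ratio comparisons made, no p was below 0.1125. Krt8 may be undercounted beside Krt18, since 48.1% of its longest transcript is at least 95% identical to the processed pseudogene Krt8-ps on chromosome 7, and reads that align to several places were not counted. No such copy was found for the other 8 genes. Krt8-ps itself had 6, 2 and 2 reads with shMed4 #4, 0, 0 and 0 with shMed4 #1, and 0, 2 and 0 in NTC.

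The noncoding gene Gm36026, chosen after its values were seen, overlaps the start of Krt8 on the other strand (chromosome 15, 102004212 to 102009442) and shares 5.16% of Krt8's exon sequence. It had 56, 56 and 72 reads with shMed4 #4, 25, 17 and 36 with shMed4 #1, and 9, 8 and 11 in NTC. Its log2 fold change over NTC was 2.67 with shMed4 #4 (SE 0.27, edgeR adjusted p = 8.20e-11) and 1.40 with shMed4 #1 (SE 0.32, edgeR adjusted p = 0.000514). Whether counting used strand is not stated in the sources used here, so reads of Krt8 and Gm36026 where they overlap cannot be told apart.

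Krt80, a type II keratin 627 kb from Krt8 in the same cluster and known from differentiating epithelia (ENSMUSG00000037185.9, chromosome 15, 101347444 to 101370162), had 194, 182 and 140 reads with shMed4 #4, 159, 183 and 194 with shMed4 #1, and 179, 201 and 182 in NTC. The groups overlap. The log2 fold change over NTC was -0.15 with shMed4 #4 (95% interval -0.37 to 0.06, edgeR adjusted p = 0.242) and -0.13 with shMed4 #1 (95% interval -0.34 to 0.08, edgeR adjusted p = 0.357). These intervals leave room for a small decrease and hold no rise like that of Krt8. Krt80 was the keratin with the most reads in each NTC library, 38.6 to 43.3% of all keratin reads, and held 8.67 to 10.6% with shMed4 #4 and 15.5 to 18.2% with shMed4 #1. Krt8 and Krt18 together held 86.2 to 88.4% with shMed4 #4, 75.9 to 77.5% with shMed4 #1 and 41.0 to 43.3% in NTC.

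The remaining ductal and basal keratins of the set were at or near the limit of detection. Krt7, a type II chain of ductal epithelium, had 5, 8 and 11 reads with shMed4 #4, 9, 6 and 4 with shMed4 #1, and 4, 3 and 1 in NTC. All libraries with shMed4 #4 lay above those of NTC, and the sums of 24 against 8 reads give a ratio of 2.94 (95% counting interval 1.28 to 7.57). The ratio of shMed4 #1 to NTC was 2.28 (0.952 to 6.01). Krt7 was tested only when the filter on low counts was dropped, with an edgeR adjusted p = 0.037 for shMed4 #4 and 0.216 for shMed4 #1. Krt14, the basal type I chain, had 1, 2 and 4 reads with shMed4 #4, 3, 5 and 1 with shMed4 #1, and 0 in each NTC library. Set against a floor of 3 reads over the NTC group, Krt14 was 2.29-fold higher with shMed4 #4 and 2.88-fold higher with shMed4 #1 (unfiltered edgeR adjusted p = 0.033 and 0.020). These ratios take the knockdown reads as exact and are not lower limits. Krt5, its basal partner, had 1 read in all, in NTC replicate 1.

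Krt19, a small type I chain of simple and ductal epithelium, had 0, 3 and 1 reads with shMed4 #4, 0, 2 and 2 with shMed4 #1, and 0 in each NTC library. Krt17, a type I keratin of appendages and wounded epidermis, had 2, 3 and 4 reads with shMed4 #4, 3, 2 and 1 with shMed4 #1, and 0, 0 and 5 in NTC. Groups overlapped for both genes, and unfiltered edgeR adjusted p-values against NTC were 0.163 and 0.210 for Krt19, and 0.542 and 0.960 for Krt17, for shMed4 #4 and shMed4 #1. A difference was not detectable at this depth for either gene. No library held more than 11 reads of any of these 5 keratins, so the rise of Krt8 and Krt18 was not accompanied by a comparable level of a basal pair.

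Across the whole keratin family, 54 genes were counted, 28 of type I and 26 of type II. Of these 33 were silent, meaning 0 reads in all 9 libraries, which allows a level of up to 0.0409 CPM over the libraries together (3 reads of the total, counting error only). The silent type II genes were Krt1, Krt2, Krt4, Krt6a, Krt6b, Krt71, Krt72, Krt73, Krt74, Krt75, Krt76, Krt77, Krt82, Krt83, Krt84 and Krt90. The silent type I genes were Krt9, Krt12, Krt15, Krt24, Krt25, Krt26, Krt27, Krt31, Krt32, Krt33a, Krt33b, Krt34, Krt35, Krt36, Krt39, Krt40 and Krt42. They include Krt1 and Krt2 of the upper epidermis, many keratins of the hair follicle, and Krt15 of basal stem cells. The limit holds for reads that can be assigned to 1 gene, since reads that align to several places or are ambiguous between genes were not counted, and near-identical copies were sought for the 9 members only. Genes on the other strand lie over 54.4% of the exon bases of Krt12 and, for a single partner, 19.5% of those of Krt6a. None of the 9 members was silent by this rule. A further 9 genes were near silent with 1 to 8 reads in all (Krt19, Krt5, Krt23, Krt28, Krt78, Krt79, Krt81, Krt86 and Krt87), and 8 were low with 16 to 51 reads in all (Krt7, Krt13, Krt14, Krt16, Krt17, Krt20, Krt88 and Krt222).

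**Figure D2:**
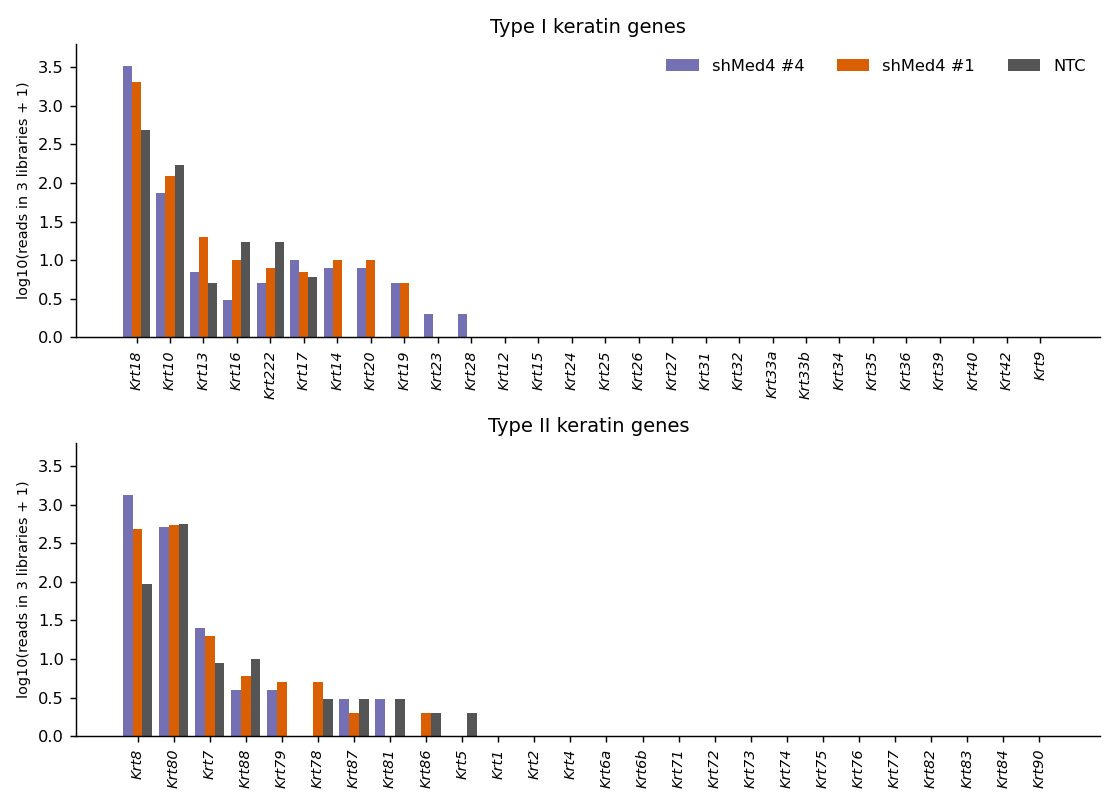
Reads of the 54 keratin genes summed over the 3 libraries of the shMed4 #4, shMed4 #1 and NTC groups, on a log10(reads + 1) axis, with type I above and type II below. Krt18, Krt8 and Krt80 carry most reads, Krt10 follows, and 33 genes have no bar because they had 0 reads.

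Krt10, a type I chain of the upper epidermis, was the single keratin outside the set that passed the filter on low counts, and it moved against Krt8. It had 23, 29 and 21 reads with shMed4 #4, 49, 39 and 35 with shMed4 #1, and 55, 52 and 64 in NTC, and the groups did not overlap. Its log2 fold change over NTC was -1.25 with shMed4 #4 (SE 0.21, edgeR adjusted p = 4.05e-06) and -0.53 with shMed4 #1 (SE 0.19, edgeR adjusted p = 0.022). Krt10 shares 6.91% of its exon sequence with a noncoding gene on the other strand. Its epidermal partner Krt1 was silent. Without the filter, Krt20 had 7, 9 and 0 reads with shMed4 #4, shMed4 #1 and NTC (edgeR adjusted p = 0.033 and 0.020 against NTC). Krt13 had 6, 19 and 4 reads (0.758 and 0.036), and Krt16 had 2, 9 and 16 (0.011 and 0.474), in the same order and test. The other keratins outside the set that had reads did not pass against NTC.

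Vimentin (ENSMUSG00000026728.9, chromosome 2, 13573927 to 13582826 on the plus strand, protein-coding) stayed abundant and was lower with each hairpin. It had 8951, 9166 and 8764 reads with shMed4 #4, 11332, 12982 and 13181 with shMed4 #1, and 15443, 15212 and 15997 in NTC. Every shMed4 #4 library lay below every shMed4 #1 library, and all 6 lay below NTC. Levels were 1101 ± 33, 1501 ± 84 and 1950 ± 25 CPM in the same order. Vim was 0.565 of NTC with shMed4 #4 (log2 -0.82, SE 0.05, edgeR adjusted p = 5.35e-17) and 0.770 with shMed4 #1 (log2 -0.38, SE 0.05, edgeR adjusted p = 5.90e-08).

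The promoter of vimentin is printed for comparison with those of the keratin pair, as the gene that moved the other way. The window is chr2:13574061-13574360 on the plus strand (RefSeq, GRCm38.p6), with the same motifs in capitals.
Vim: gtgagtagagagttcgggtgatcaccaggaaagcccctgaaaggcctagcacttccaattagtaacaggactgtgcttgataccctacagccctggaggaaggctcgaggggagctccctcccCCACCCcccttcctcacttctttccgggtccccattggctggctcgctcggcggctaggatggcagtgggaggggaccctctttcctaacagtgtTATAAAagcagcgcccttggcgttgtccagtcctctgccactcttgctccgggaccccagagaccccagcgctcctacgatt
It holds TATAAA at position -32 and 1 CACCC box match at position -127 from the start site, and no match to the E-box, GC box or AP-1 letters. RefSeq windows were at hand for 6 of the 9 genes.

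Much of the region around Vim was also lower. Among 50 tested neighbours, 25 on each side over 16.9 Mb, 29 were called lower and 6 higher with shMed4 #4 (median log2 fold change -0.48), and 28 lower and 4 higher with shMed4 #1 (median -0.31). Vim itself was at -0.82 and -0.38, so with shMed4 #1 it lay close to the median of its neighbours. Around Krt8, 29 of 48 neighbours over 2.74 Mb were higher and 5 lower with shMed4 #4 (median 0.31), and 22 higher and 4 lower with shMed4 #1 (median 0.18). Krt8 and Krt18 were above all 48 with either hairpin. With shMed4 #4 the highest neighbour was Gm36026, which overlaps Krt8, at 2.67 (SE 0.27). Krt18, at 2.70, lay closer to Gm36026 than that SE. Krt80, on the same stretch, was below the median. Over all tested genes 27.8% were higher and 27.3% lower with shMed4 #4, and 21.8% higher and 19.8% lower with shMed4 #1. The medians over all tested genes were -0.01 with both hairpins, and the part of the regional shift in the change of Vim was not tested.

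**Figure D3:**
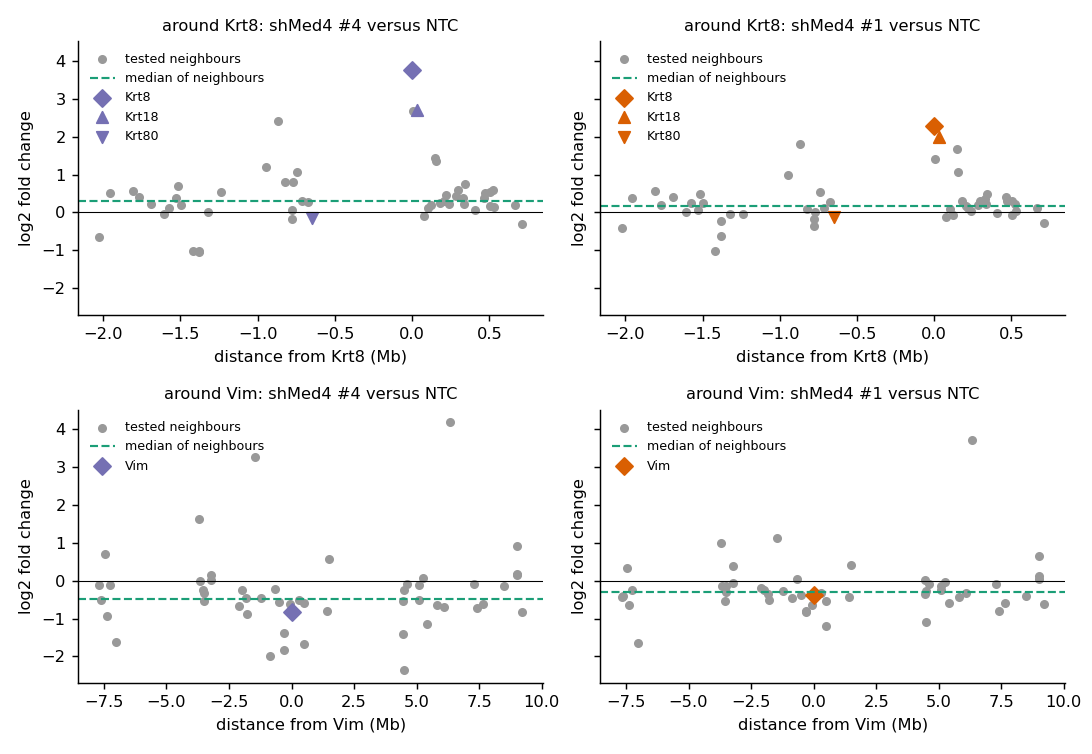
Log2 fold change against NTC of tested genes by distance in Mb from Krt8 (upper panels) and Vim (lower panels), with shMed4 #4 on the left and shMed4 #1 on the right. Grey points are up to 25 neighbours on each side, the dashed line is their median and large symbols are the named genes. Krt8 stands above its neighbours, and Krt18 stands above them or, with shMed4 #4, about level with the highest, Gm36026. Vim lies among neighbours that are mostly below 0.

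Read per kb of exon, the order of the genes changed. With shMed4 #4 Vim stood at 232 ± 6.9 CPM per kb, Krt18 at 92.3 ± 6.9, Krt8 at 27.5 ± 1.7 and Krt80 at 3.31 ± 0.55. With shMed4 #1 the levels were 316 ± 18 for Vim, 56.2 ± 6.1 for Krt18, 9.81 ± 0.25 for Krt8 and 3.36 ± 0.23 for Krt80. In NTC Vim stood at 411 ± 5.3, Krt18 at 14.2 ± 0.49, Krt80 at 3.68 ± 0.33 and Krt8 at 2.01 ± 0.21. Neighbours in each of these orders differed beyond their SD, and Krt8 and Krt80 changed places. The group means of the remaining 5 keratins lay between 0 and 0.238. Among 14328 tested genes with a length, Krt8 ranked 2099 with shMed4 #4, 5623 with shMed4 #1 and 11385 in NTC, Krt18 ranked 446, 830 and 4069, and Vim 135, 87 and 63.

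The level of vimentin was 1.94 ± 0.14 times that of Krt8 and Krt18 together with shMed4 #4, 4.81 ± 0.36 times with shMed4 #1 and 25.4 ± 0.54 times in NTC, per kb. The groups did not overlap (exact two-sided permutation p = 0.10 in each comparison, the smallest possible). As all annotated exons served as length, the factor itself is uncertain: with the longest transcript of each gene, an alternative chosen after seeing the data, it was 3.15, 7.80 and 41.1. All 54 keratins together made up 35.1 ± 1.7% of keratin plus vimentin transcripts per kb with shMed4 #4, 18.8 ± 1.1% with shMed4 #1 and 5.68 ± 0.15% in NTC. Vimentin thus remained the more abundant transcript in every library.

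**Figure D4:**
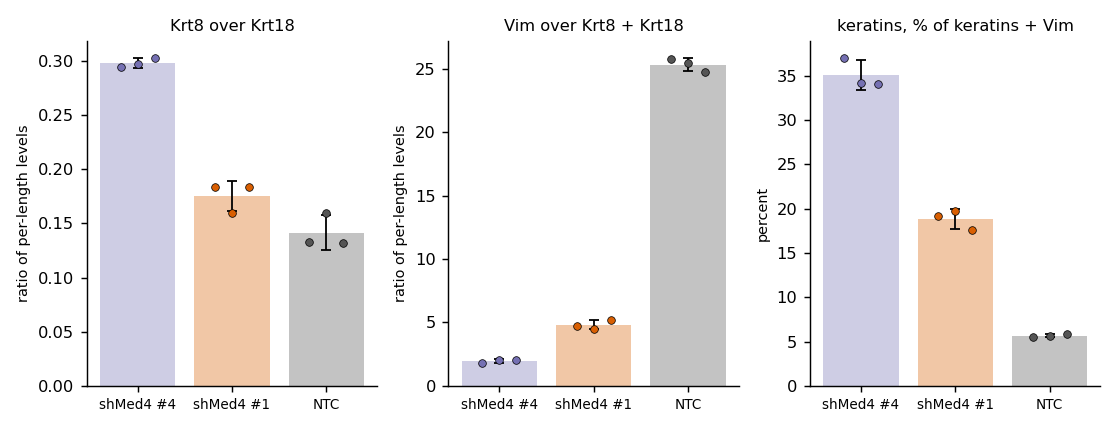
Ratios of per-length levels in each library of the shMed4 #4, shMed4 #1 and NTC groups: Krt8 over Krt18, Vim over Krt8 plus Krt18, and keratins as a percentage of keratins plus vimentin. Points are libraries, bars means and whiskers SD (n = 3), all from 0. Vim over the keratin pair is 1.94 with shMed4 #4, 4.81 with shMed4 #1 and 25.4 in NTC.

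The hairpins differed from each other in the same 3 genes. With shMed4 #4 against shMed4 #1, 2 members were higher and 1 lower, where 28.0% of all genes were called (14.2% higher, 13.9% lower). Krt8 was 2.80-fold higher (log2 1.49, SE 0.09, edgeR adjusted p = 2.34e-16) and Krt18 1.64-fold higher (log2 0.72, SE 0.07, edgeR adjusted p = 5.52e-11). Vim was at 0.734 of its level with shMed4 #1 (log2 -0.45, SE 0.05, edgeR adjusted p = 3.99e-09). Krt80 did not pass (log2 -0.02, 95% interval -0.24 to 0.19, edgeR adjusted p = 0.906). The group with more Krt8 was not the group with less Med4, since Med4 was 1.59-fold higher with shMed4 #4 than with shMed4 #1 (log2 0.67, SE 0.18, edgeR adjusted p = 0.00401).

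**Figure D5:**
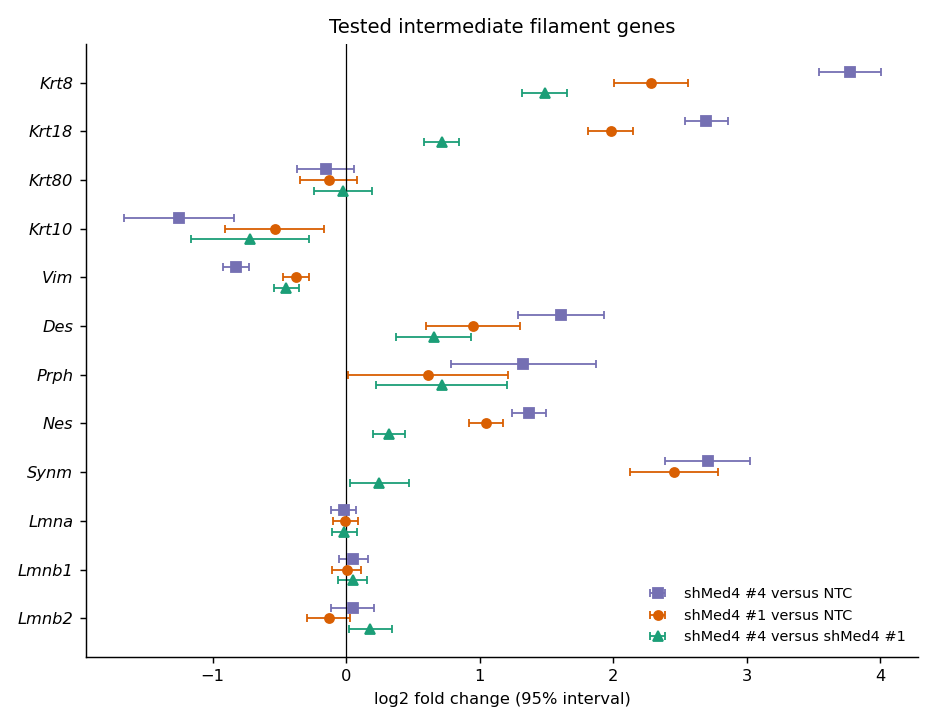
Log2 fold changes with 95% intervals for the tested keratins, vimentin and the other tested intermediate filament genes, for shMed4 #4 against NTC (squares), shMed4 #1 against NTC (circles) and shMed4 #4 against shMed4 #1 (triangles). Krt8, Krt18, Synm, Nes and Des lie to the right of 0, Vim and Krt10 to the left, and the lamins and Krt80 near 0.

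Among the other cytoplasmic and nuclear intermediate filaments, vimentin was not followed by its relatives. Of 14 listed genes 7 were tested. With shMed4 #4 4 rose and 0 fell (median log2 fold change 1.33), beside 27.8% of all tested genes higher and 27.3% lower. With shMed4 #1 3 rose and 0 fell (median 0.61), beside 21.8% of all genes higher and 19.8% lower. Synm, encoding synemin, which links filaments to adhesion sites, averaged 18.9, 15.9 and 2.88 CPM with shMed4 #4, shMed4 #1 and NTC, a log2 fold change of 2.71 and 2.46 (edgeR adjusted p = 6.25e-17 and 5.46e-15). Nes, encoding nestin, which co-assembles with vimentin, averaged 244, 195 and 94.5 CPM in the same order (log2 1.37 and 1.05, edgeR adjusted p = 3.63e-20 and 4.07e-16). Des, the muscle filament desmin, averaged 12.1, 7.68 and 3.97 CPM (log2 1.61 and 0.95, edgeR adjusted p = 1.36e-10 and 4.18e-05). The neuronal type III gene Prph rose with shMed4 #4 (log2 1.33, edgeR adjusted p = 9.85e-05) and was at 0.61 with shMed4 #1 (edgeR adjusted p = 0.108). On the other strand, 1 gene lies over 5.86% of the exon bases of Des, and of the genes over Synm the one with the longest overlap covers 5.37%. The lamin genes Lmna, Lmnb1 and Lmnb2 lay between -0.13 and 0.05 and did not pass.

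A list of 24 genes, 16 of them tested, held genes of desmosomes, hemidesmosomes and cytolinkers, the anchors of keratin filaments. It also held Tchp, Krtcap2 and Krtcap3, which were not called. With each hairpin 6 rose and 1 fell (median log2 fold change 0.07 with shMed4 #4 and 0.09 with shMed4 #1). The 6 were not all the same genes. Plec was called higher with shMed4 #4 alone (log2 0.38, and 0.10 with shMed4 #1). Ppl was called higher with shMed4 #1 alone (log2 1.39, and 0.40 with shMed4 #4). Over all tested genes 27.8% were higher and 27.3% lower with shMed4 #4, and 21.8% higher and 19.8% lower with shMed4 #1. Pkp1, a plakophilin of the desmosomal plaque, averaged 64.9, 53.1 and 9.54 CPM with shMed4 #4, shMed4 #1 and NTC (log2 2.76 and 2.47, edgeR adjusted p = 2.06e-23 and 3.87e-21). Jup, plakoglobin, averaged 56.2, 49.3 and 9.77 CPM (log2 2.52 and 2.33, edgeR adjusted p = 3.84e-23 and 2.41e-21). Itga6, the laminin receptor chain of hemidesmosomes, averaged 31.7, 29.3 and 15.1 CPM (log2 1.07 and 0.96, edgeR adjusted p = 1.15e-11 and 5.42e-10). Itgb4, on the same list, averaged 3.56, 3.16 and 3.37 CPM in the same order and was not called. Col17a1 had 35 reads in all 9 libraries. The desmoplakin gene Dsp, whose product ties keratin filaments to desmosomes, had 23 reads in all 9 libraries and was not tested. Of these, 14, 5 and 4 were with shMed4 #4, shMed4 #1 and NTC. The desmosomal cadherins Dsg1a, Dsg2, Dsg3, Dsc1, Dsc2 and Dsc3 had at most 4 reads each in all 9 libraries. The gene that fell with both was the cytolinker Dst (log2 -0.41 and -0.34, edgeR adjusted p = 4.93e-07 and 2.46e-05).

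Epithelial transcription and splicing factors moved in both directions. Of 18 listed, 11 were tested, with 7 higher and 3 lower with shMed4 #4 (median log2 fold change 0.61) and 6 higher and 3 lower with shMed4 #1 (median 0.51). Beside the shares of all genes, 27.8% higher and 27.3% lower with shMed4 #4 and 21.8% and 19.8% with shMed4 #1, the number lower was near the background with shMed4 #4. Klf4 averaged 78.0, 69.9 and 47.7 CPM with shMed4 #4, shMed4 #1 and NTC (log2 0.71 and 0.55, edgeR adjusted p = 3.97e-11 and 4.10e-08). Tfap2a, of which 7.75% of exon bases lie under 1 gene on the other strand, the one with the longest overlap, fell, at 18.3, 22.7 and 36.4 CPM (log2 -0.99 and -0.68, edgeR adjusted p = 6.66e-11 and 2.37e-07). Ovol1, a repressor of mesenchymal genes, rose at a low level, with 2.41, 2.00 and 0.338 CPM (log2 2.80 and 2.53, edgeR adjusted p = 2.71e-06 and 4.47e-05), and a pseudogene on the other strand covers 19.8% of its exon bases.

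All 8 listed repressors of epithelial genes were tested, with 2 higher and 2 lower with shMed4 #4 and 1 higher and 2 lower with shMed4 #1. These counts are near the shares over all genes, 27.8% higher and 27.3% lower with shMed4 #4 and 21.8% and 19.8% with shMed4 #1. Prrx1, a mesenchymal homeobox gene, averaged 66.8, 48.6 and 8.52 CPM with shMed4 #4, shMed4 #1 and NTC (log2 2.98 and 2.52, edgeR adjusted p = 3.84e-23 and 7.40e-20). Twist2 was lower at 1.19, 1.44 and 2.81 CPM (edgeR adjusted p = 0.00271 and 0.018), and 46.5% of its exon sequence overlaps a gene on the other strand. Tcf3 was lower with shMed4 #1 alone among the hairpins (log2 -0.19, edgeR adjusted p = 0.00796), stood at 0.10 with shMed4 #4 (edgeR adjusted p = 0.136), and differed between them (log2 0.30, edgeR adjusted p = 0.000168). With shMed4 #4 Zeb1 was lower (log2 -0.22, edgeR adjusted p = 0.013) and Twist1 higher (log2 0.17, edgeR adjusted p = 0.016), and neither passed with shMed4 #1 (log2 -0.04 and 0.13). Zeb2, Snai1 and Snai2 did not pass with either hairpin.

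By correlation of log2 CPM over the 9 libraries, among 10136 genes of at least 5 CPM, genes most like Krt8 included Dhcr7, Sec13, Ttc13 and P2rx3 (r = 0.995 to 0.996), and Krt18 stood at 0.987. Those most like Vim were Lcn2, Nfkb1, Slc24a3, Ppm1f and Slpi (r = 0.994 to 0.996), of which Lcn2, Slc24a3 and Slpi are also on chromosome 2. The libraries form 3 groups, so these values mostly record the order of the group means and are given as a description. Dhcr7 averaged 57.7, 39.3 and 22.2 CPM with shMed4 #4, shMed4 #1 and NTC, and Lcn2 averaged 137, 299 and 555 CPM in the same order.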

How the data were processed

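Each library came as 1 deposited file of raw whole-number counts of reads for each gene. The submitters' processing notes name STAR, HTSeq and mm10 (GRCm38). Versions, annotation release and use of strand: not given in the sources used here. The 5 summary lines of each file, which name no gene, were left out. Reads assigned to no gene were 49.5 to 51.6% of records and alignments to several places 10.5 to 11.6%.

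Of 55335 identifiers, 55154 matched a symbol without version. Coordinates and exon lengths came from GENCODE M21. In R 4.3.3, edgeR 4.0.16 was run with TMM factors (0.969 to 1.03), filterByExpr (minimum count 10, 14335 genes), 1 quasi-likelihood model of the 3 groups and Benjamini-Hochberg adjustment, after a test on simulated data. The SE is the log2 fold change over the square root of F. Ratios were tested by exact permutation with scipy 1.17.1, and copies were sought with BLAST 2.17.0 (95% identity, 100 bases). Within groups, every pair of libraries differed by more than sampling noise (chi-square over its degrees of freedom, 1.53 to 2.95). Alternatives were DESeq2 1.42.0, limma-voom (limma 3.58.1), other factors, filters and libraries, and the replicate number as a block. Members and lists were chosen with earlier results of these data known. Named are the 9 members, any other tested keratin, Med4, up to 3 genes per list by smallest adjusted p and the 5 genes most like Krt8 and Vim, of which 1 is not reported here. Dsp, the desmosomal cadherins, Dst, Prph, the lamins, Zeb1, Zeb2, Twist1, Snai1, Snai2 and the marker genes were named besides, after their values were seen. So were Itgb4, Plec, Ppl, Krt13, Krt16 and Krt20.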

Additional observations from a re-analysis of the deposited data

Results flagged for a closer look

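The effects of the hairpins against NTC differed for 3 of the 4 tested members, by the direct contrast of shMed4 #4 with shMed4 #1 in edgeR, in which 28.0% of all tested genes were called. The other 5 members were not tested. The log2 difference was 1.49 for Krt8, 0.72 for Krt18 and -0.45 for Vim (edgeR adjusted p = 2.34e-16, 5.52e-11 and 3.99e-09). In each case all 3 shMed4 #4 libraries lay farther from NTC than all 3 shMed4 #1 libraries did, while Med4 was lower with shMed4 #1.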

How the results depend on the processing

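Krt8, Krt18 and Vim kept their direction and stayed past the threshold in all 3 comparisons under all 17 alternatives. These were DESeq2, limma-voom, DESeq2 size factors, upper-quartile factors, no filter, a filter of 1 CPM in 3 libraries, only the 6 libraries compared, the replicate block and leaving out each of the 9 libraries. Over them the log2 fold change of Krt8 ranged from 3.71 to 3.86 with shMed4 #4 and from 2.23 to 2.37 with shMed4 #1, and that of Vim from -0.87 to -0.80 and from -0.41 to -0.33. Without a filter on low counts, 4 members were called higher with shMed4 #4 against NTC, since Krt7 and Krt14 were then tested. The unfiltered fit gave far smaller p-values for Krt8, Krt18 and Vim than the main one, so these 2 added calls are weak. Krt80 passed under none. Its difference between shMed4 #4 and shMed4 #1 ranged from -0.10 to 0.11 when each library was left out, and turned positive without shMed4 #1 replicate 2 (0.0014), shMed4 #1 replicate 3 (0.014) or shMed4 #4 replicate 3 (0.11). Libraries with the same replicate number did not visibly deviate together (correlations -0.148 to 0.107 over 9 pairs, against -0.158 to 0.164 over 18 pairs of unequal number). These deviations were taken from the mean of each group of 3, and such correlations cannot exclude a pairing by number. With the replicate block the log2 fold change of Krt8 was 3.77 with shMed4 #4 and 2.29 with shMed4 #1 (edgeR adjusted p = 1.63e-21 and 5.73e-14), and no call among the members changed. Counts of all genes called stayed within 1.5 times under every alternative. Depth limits the 5 keratins with at most 11 reads per library, and intervals and floors cover counting error only. With the longest transcript as gene length, chosen after seeing the data, Vim over Krt8 plus Krt18 was 3.15, 7.80 and 41.1 with shMed4 #4, shMed4 #1 and NTC.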
